A study of Mus musculus with 3 samples.

Results

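The genes described here were 7 regulators of G-protein signaling, *Rgs1*, *Rgs2*, *Rgs3*, *Rgs4*, *Rgs5*, *Rgs10* and *Rgs16*, which were found by symbol among the 32285 genes counted in single cells of the mouse ascending aorta. The set was chosen by measured values, because *Rgs5* had been seen lower in mutant smooth muscle, so the comparison of mutant with wild-type smooth muscle is a description of what chose it. The study compared 3 libraries from male C57BL/6J mice at postnatal day 45. WT cells were pooled from 3 wild-type mice. mgR cells were pooled from 3 mice homozygous for the hypomorphic fibrillin-1 allele (Fbn1 mgR/mgR), a model of severe Marfan syndrome, and mgR-LOS cells from 4 mice of that genotype whose drinking water held losartan, a blocker of the angiotensin II type 1 receptor, at 0.6 g/L from day 16. The labels do not say whether the mgR mice drank vehicle. As there was 1 pooled library per group, no difference between groups could be tested, the spread between mice is unknown, and the mgR library is shared by the comparisons of mgR with WT and of mgR-LOS with mgR.

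RGS proteins bind the active, GTP-bound alpha subunit of a heterotrimeric G protein and speed up GTP hydrolysis, so they shorten the signal that a G-protein-coupled receptor sends. In smooth muscle the family is known for limiting the response to vasoconstrictors such as angiotensin II, endothelin-1 and noradrenaline. RGS2 acts mainly on G alpha q, RGS4 and RGS5 act on both G alpha q and G alpha i, and RGS1, RGS10 and RGS16 are best known from leukocytes, where they limit chemokine receptor signals. *Rgs5* is also a widely used marker of pericytes, the mural cells of capillaries.

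On the mouse genome (GRCm38, GENCODE vM21), 5 of the 7 genes were on chromosome 1. *Rgs5* (chr1:169655501-169695813, plus strand) and *Rgs4* (chr1:169741477-169747642, minus strand) faced each other across 45663 bases with 0 annotated genes wholly between them. *Rgs2* (chr1:143999338-144004161) and *Rgs1* (chr1:144242296-144249242) were both on the minus strand with *Rgs13* between them, and *Rgs16* (chr1:153740349-153745468) was on the plus strand. *Rgs3* (chr4:62559847-62704001, plus strand) and *Rgs10* (chr7:128373621-128418758, minus strand) were elsewhere. An antisense gene overlapped *Rgs3* and *Rgs16*. A gene on the same strand overlapped *Rgs10*, so reads in the part that it shares with *Rgs10* may be assigned with less certainty.

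The 250 bases before the RefSeq start are shown for 4 of the 6 members that matched a RefSeq entry, so that the adjacent *Rgs4* and *Rgs5* can be compared with *Rgs2* and *Rgs16* (RefSeq, GRCm38.p6, each 5′ to 3′ on the gene's own strand). Capitals mark 3 motifs found on either strand. The first is TATAAA, the core of the TATA box. The second is the CCAAT box, which reads ATTGG where it lies on the opposite strand. The last is the core of a cAMP response element, with the letters CGTCA, and its reverse reads TGACG. The windows are chr1:169655251-169655500 (*Rgs5*), chr1:169747643-169747892 (*Rgs4*), chr1:144004150-144004399 (*Rgs2*) and chr1:153740103-153740352 (*Rgs16*).
Rgs5: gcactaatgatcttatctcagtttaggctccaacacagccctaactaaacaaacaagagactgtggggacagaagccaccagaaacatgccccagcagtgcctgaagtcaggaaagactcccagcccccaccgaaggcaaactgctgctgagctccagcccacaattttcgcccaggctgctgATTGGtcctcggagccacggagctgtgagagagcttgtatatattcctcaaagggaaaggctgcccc
Rgs4: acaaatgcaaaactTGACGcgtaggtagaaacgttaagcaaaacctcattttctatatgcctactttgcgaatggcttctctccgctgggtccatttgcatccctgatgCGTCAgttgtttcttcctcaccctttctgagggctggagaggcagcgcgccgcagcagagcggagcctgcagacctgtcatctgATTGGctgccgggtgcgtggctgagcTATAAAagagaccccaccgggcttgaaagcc
Rgs2: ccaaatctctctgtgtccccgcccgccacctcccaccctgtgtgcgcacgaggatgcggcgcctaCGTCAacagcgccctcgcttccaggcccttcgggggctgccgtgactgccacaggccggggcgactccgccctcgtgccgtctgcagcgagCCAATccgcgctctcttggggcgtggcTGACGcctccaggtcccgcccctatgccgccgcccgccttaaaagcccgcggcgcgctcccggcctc
Rgs16: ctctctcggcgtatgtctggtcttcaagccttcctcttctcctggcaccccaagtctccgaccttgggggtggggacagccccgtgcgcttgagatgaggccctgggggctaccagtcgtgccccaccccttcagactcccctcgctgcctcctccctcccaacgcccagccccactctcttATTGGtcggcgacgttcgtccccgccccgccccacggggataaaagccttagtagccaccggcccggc

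All 4 windows shown held CCAAT, the letters of the box read by nuclear factor Y, which 33.8% of 32851 mouse windows of the same length held. The windows of *Rgs3* and *Rgs10*, the other members with an entry, held 0 matches to CCAAT, so the box was not common to the set. In *Rgs5* it lay 63 bases before the start, reversed. In *Rgs4* a reversed CCAAT lay 53 bases before the start and TATAAA, found in 12.4% of windows, lay 26 bases before it. *Rgs2* and *Rgs16* had CCAAT at 90 and 64 bases. CGTCA, the core of a cAMP response element, was found in 17.8% of windows. It occurred 2 times each in *Rgs4* and *Rgs2* and did not occur in the *Rgs5* and *Rgs16* windows. None of these windows held the full cAMP response element TGACGTCA (1.55% of windows), the AP-1 letters TGANTCA (6.75%) or the CArG box of serum response factor (1.47%). These matches are letters in the sequence and were not tested as binding sites.

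RNA molecules were counted by unique molecular identifiers (UMIs). The barcodes kept, which had 600 to 5000 genes and no more than 10% of UMIs from mitochondrial genes, numbered 5361 in WT, 8076 in mgR and 12721 in mgR-LOS, with a median of 13636, 12410.5 and 8334 UMIs. The libraries shared 22 to 46 barcode sequences pairwise. *Fbn1* stood at 361, 150.1 and 117 UMIs per 1000000 (CPM), lower in both mutant libraries. These values are sums over all kept barcodes, whose makeup of cell classes differed between libraries. Smooth muscle cells (SMC), endothelial cells (EC), immune cells and fibroblasts were gated on fixed marker panels that hold no RGS gene, which gave 3654, 3118 and 7908 SMC, 99, 206 and 155 EC and 136, 1675 and 781 immune barcodes in WT, mgR and mgR-LOS. The median SMC barcode held 519, 496 and 490 SMC panel UMIs per 10000 against 13.6, 12.8 and 15.9 in the median EC, and 12, 78 and 51 SMC barcodes lay within 1.5-fold of the gate's limit. Levels are the CPM of all UMIs summed over a class, and the values in parentheses beside a level or ratio are exact 95% intervals that cover counting error only. A ratio was called past the limit at 1.5-fold if the gene reached 10 CPM in either library.

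Each member was compared with itself across classes, as the plot of levels by class shows. *Rgs1* was above 440 CPM in immune cells of every library and at most 3.03 CPM in SMC, EC and fibroblasts. *Rgs10* had the order immune, fibroblast, then SMC and EC, whose intervals overlapped in each library. *Rgs3* was highest in EC and next in SMC in every library, whereas its fibroblast and immune intervals overlapped in WT and mgR-LOS. *Rgs4* was highest in SMC, at 79.0, 59.8 and 66.6 CPM against at most 16.2 CPM in any other class. *Rgs2* was highest in immune cells, and the order of SMC and fibroblasts differed between libraries, with SMC above fibroblasts in WT (54.5 against 39.4 CPM) and below them in mgR (10.6 against 62.4 CPM).

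**Figure D1:**
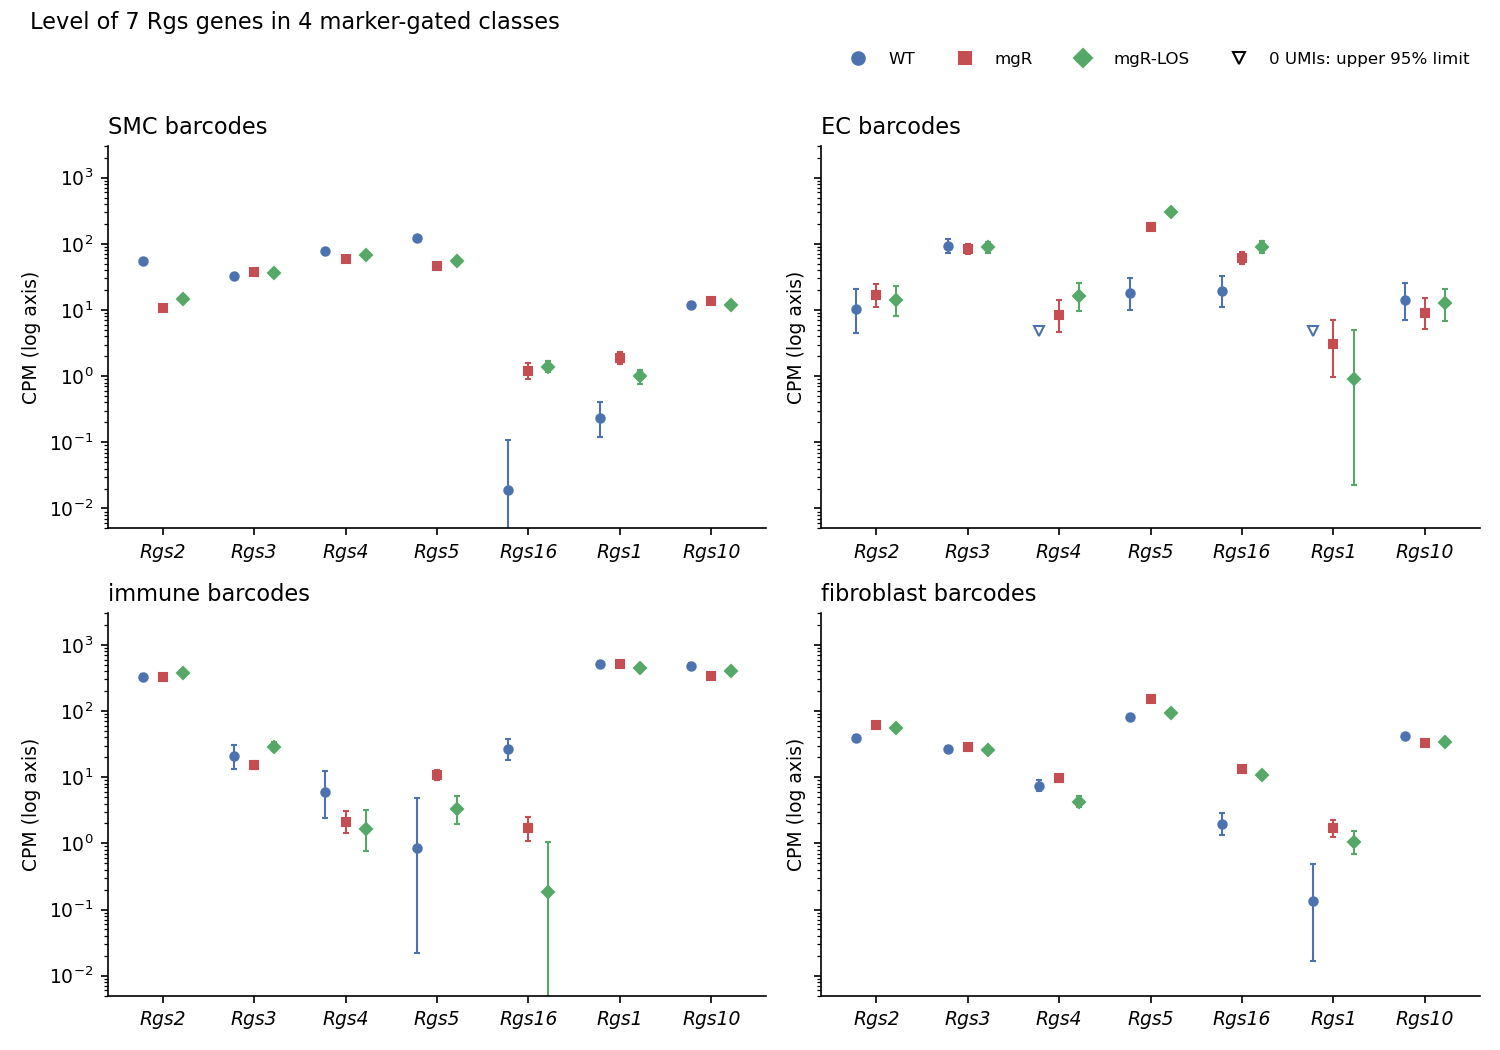
Level of each of the 7 RGS genes (CPM, log axis) in SMC, EC, immune cells and fibroblasts of the WT, mgR and mgR-LOS libraries, where points are the sums over a class, bars are exact 95% counting intervals and open triangles mark the upper limit where a class had 0 UMIs. *Rgs1* and *Rgs10* stand highest in immune cells, *Rgs4* in SMC and *Rgs3* in EC in all 3 libraries, whereas *Rgs5* is highest in SMC in WT and in EC in mgR and mgR-LOS.

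In SMC, *Rgs5* and *Rgs2* were lower in mgR than in WT and remained lower in mgR-LOS, while *Rgs3*, *Rgs4* and *Rgs10* stayed within 1.5-fold. Of the 5 members with 10 CPM, 2 were past the limit lower and 0 higher, where 4.1% of all 7613 genes tested were past it lower and 5.06% higher. The members' median log2 ratio was -0.40 against -0.02 over all genes. Since *Rgs5* chose the set, nothing is read from this count.

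*Rgs5* stood at 124 CPM (121–127) in WT SMC, 46.6 CPM (44.7–48.6) in mgR SMC and 55.3 CPM (53.6–57.1) in mgR-LOS SMC. WT was the highest library, and the mgR-LOS level lay close to that of mgR. The ratio of mgR to WT was 0.377 (0.359–0.395), that of mgR-LOS to mgR was 1.19 (1.13–1.25), and that of mgR-LOS to WT was 0.447 (0.429–0.465). The mgR to WT ratio lay between 0.221 and 0.625 under the 10 other ways of processing, past the limit in each, whereas the mgR-LOS to mgR ratio lay between 0.918 and 2.39 and turned below 1 when barcodes positive for several classes were kept and when the mean per barcode was used.

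*Rgs5* was spread unevenly over SMC barcodes. After thinning every barcode to 1000 UMIs, 7.87% (7.01–8.79) of WT SMC barcodes had an *Rgs5* UMI, against 3.15% (2.56–3.82) in mgR and 4.01% (3.59–4.47) in mgR-LOS. Without thinning these shares were 36.7, 16.4 and 15.7%, at median depths of 14371.5, 15122 and 8529 UMIs, and 6, 3 and 5 SMC barcodes were too shallow to thin. In immune cells, which should lack *Rgs5*, the thinned shares were 0% (0 of 136 barcodes, upper limit 2.68%), 0.478% and 0.256% at median depths of 8249, 7670 and 6197 UMIs. The SMC shares were therefore above the level found in a class without the gene in each library.

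A small set of SMC barcodes carried most *Rgs5* UMIs. Barcodes with at least 5 *Rgs5* UMIs per 10000 and at least 3 in all, a limit set after seeing the data, made up 197 of WT SMC (5.39%), 46 of mgR SMC (1.48%) and 215 of mgR-LOS SMC (2.72%). They held 59.9, 60.2 and 58.8% of the SMC *Rgs5* UMIs. The remaining SMC stood at 52.5, 18.8 and 23.4 CPM. As the barcodes were split by the *Rgs5* level itself, these values are a description and support no order of the libraries.

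In SMC, the summed pericyte genes and *Rgs5* were both lowest in mgR, but only *Rgs5* was highest in WT. The summed level of 6 pericyte genes with *Rgs5* left out (*Kcnj8*, *Abcc9*, *Higd1b*, *Ndufa4l2*, *Cox4i2* and *Vtn*) was 112 CPM in WT SMC, 78.4 CPM in mgR SMC and 118 CPM in mgR-LOS SMC. This sum was 139, 223 and 179 CPM in the *Rgs5*-rich SMC barcodes, against 110, 76.7 and 116 CPM in the other SMC barcodes. SMC barcodes with at least 2 UMIs of *Higd1b*, *Ndufa4l2* and *Vtn* numbered 7, 30 and 44, or 0.192, 0.962 and 0.556% of SMC. In these, *Rgs5* stood at 155 CPM (88.4–251) in WT, 1388 CPM (1262–1522) in mgR and 299.7 CPM (247–360.3) in mgR-LOS. Without the pericyte-marker barcodes the SMC levels of *Rgs5* were 124, 37.4 and 54.0 CPM, so WT was the highest library with and without them.

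*Rgs5* was also compared within kinds of SMC barcode, in subsets added after seeing the data. Each subset needed at least 3 UMIs summed over its genes, so a barcode need not hold all of them. These UMIs were not thinned, so the share of SMC that each subset makes up depends on depth. The medians were 14371.5, 15122 and 8529 UMIs in WT, mgR and mgR-LOS SMC. SMC with at least 3 UMIs of *Sost*, *Acan* and *Susd5* were 93.8, 92.9 and 80.7% of WT, mgR and mgR-LOS SMC. Among these, *Rgs5* stood at 123 CPM in WT, 35.8 CPM in mgR and 44.9 CPM in mgR-LOS. SMC with at least 3 UMIs of *Rbp4* and *Wif1* were 64.0% of WT SMC but 15.01% of mgR and 7.44% of mgR-LOS SMC, and there *Rgs5* stood at 100.2 CPM in WT, 75.3 CPM in mgR and 97.6 CPM in mgR-LOS. In this subset the mgR to WT ratio was 0.751 (0.688–0.819), but 10 barcodes held 74.9% of its mgR *Rgs5* UMIs. Thinned to 1000 UMIs, 6.84% (5.85–7.94) of its WT and 3.63% (2.13–5.75) of its mgR barcodes had an *Rgs5* UMI. In all SMC these shares were 7.87 and 3.15%, so it is not told whether the difference was smaller in this subset. In SMC with at least 3 UMIs of *Vcam1* and *Spp1*, which were 1.48, 19.6 and 3.79% of SMC, *Rgs5* stood at 92.6, 30.6 and 67.4 CPM. All 3 subsets, which share barcodes, had mgR lowest and WT highest. In SMC with *Rbp4* or *Wif1*, however, the mgR-LOS to WT ratio was 0.974 (0.892–1.06), so these 2 libraries were not told apart. The plot of *Rgs5* by population sets the SMC levels with and without pericyte markers beside those of the other classes.

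**Figure D2:**
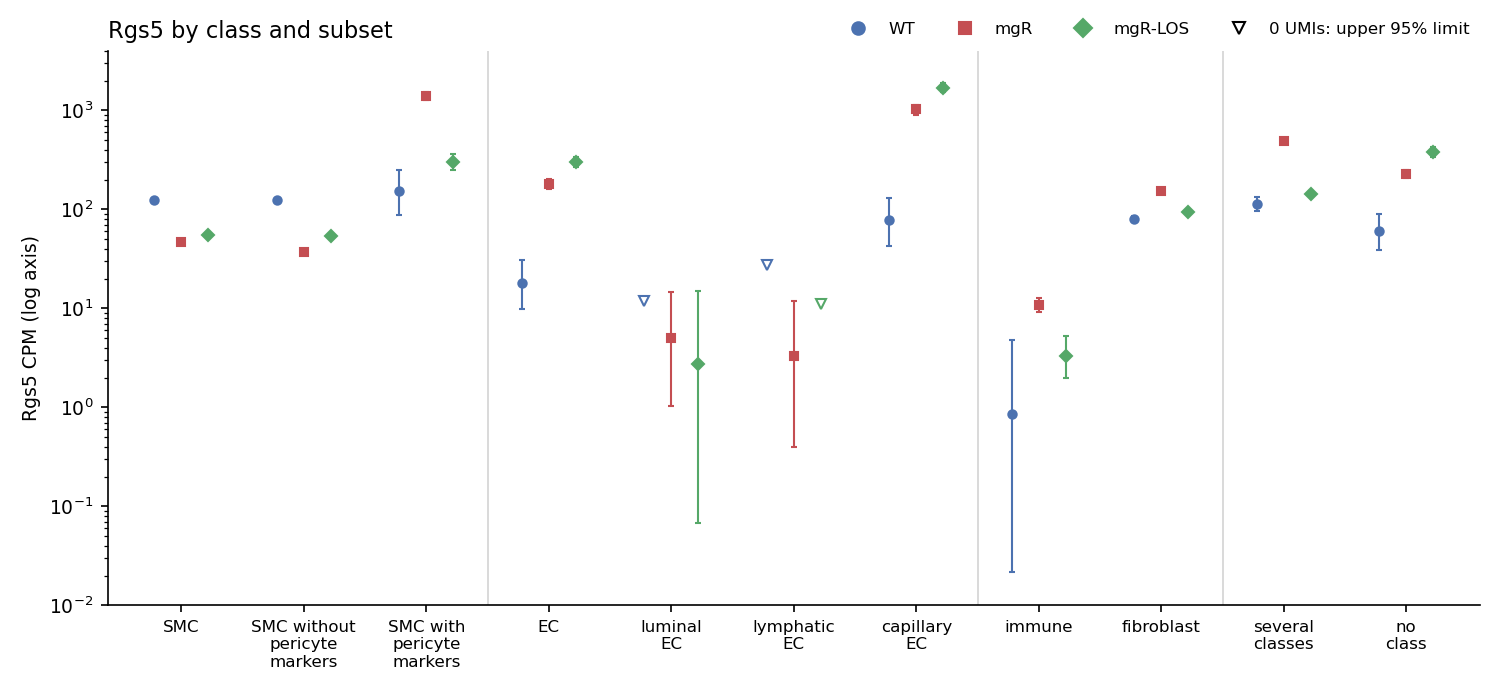
Level of *Rgs5* (CPM, log axis) in each class and subset of the WT, mgR and mgR-LOS libraries, where points are sums over the barcodes of a population, bars are exact 95% counting intervals and open triangles mark the upper limit where there were 0 UMIs. WT is highest in SMC as a whole (124, 46.6 and 55.3 CPM), whereas the capillary EC subset stands at 77.9 CPM in WT, 1021 CPM in mgR and 1693 CPM in mgR-LOS.

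*Rgs2*, which restrains G alpha q signaling and is transcribed rapidly after stimulation, had the larger SMC difference. It stood at 54.5 CPM (52.5–56.5) in WT, 10.6 CPM (9.68–11.6) in mgR and 14.6 CPM (13.7–15.5) in mgR-LOS. The ratio of mgR to WT was 0.194 (0.176–0.214), that of mgR-LOS to mgR was 1.38 (1.24–1.54), and that of mgR-LOS to WT was 0.269 (0.250–0.288). WT stood well above both mutant libraries, and the difference between the mutant libraries was within the 1.5-fold limit.

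*Rgs2* was lower in mgR in each of the 3 SMC subsets and was less concentrated in few barcodes than *Rgs5*. The 10 richest barcodes held 7.24% of its WT UMIs and 18.2% of its mgR UMIs in SMC, where the same barcode count held 12.8 and 36.2% of *Rgs5* UMIs. Thinned to 1000 UMIs, 4.39% (3.74–5.10) of WT SMC barcodes had an *Rgs2* UMI, against 1.25% (0.892–1.71) in mgR and 1.59% (1.33–1.90) in mgR-LOS. No gated class lacked *Rgs2*, and in EC, where its WT level was lowest, the shares were 1.01, 2.45 and 1.94% at median depths of 6647, 7678.5 and 5660 UMIs. The SMC shares of both mutant libraries were below those of EC, which rested on few barcodes (5 of 204 in mgR). As EC also held *Rgs2*, its shares give no background level. Whether the SMC shares stood above background cannot be told by this measure. The mgR to WT ratio was 0.146 in SMC with *Rbp4* or *Wif1*, 0.169 in SMC with *Sost*, *Acan* or *Susd5*, and 0.384 in SMC with *Vcam1* or *Spp1*.

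Stress-response genes, which can change while tissue is dissociated, were measured beside *Rgs2*. Of the 4 heat shock genes, 3 were past the limit lower in mgR than in WT SMC, against 4.1% of all genes. *Hspa1a*, an inducible chaperone, stood at 465 CPM in WT, 188 CPM in mgR and 458 CPM in mgR-LOS, *Hspa1b* at 300.4, 122 and 236 CPM, and *Dnajb1* at 93.3, 62.1 and 81.9 CPM. None of the 10 immediate early genes was past the limit between mgR and WT SMC, against 5.06% of all genes higher and 4.1% lower. *Fos* stood at 4571, 3687 and 4465 CPM, *Jun* at 1388, 1097 and 1481 CPM and *Junb* at 859.6, 1049 and 1009 CPM. In SMC, *Hspa1a* and *Hspa1b* were higher again in mgR-LOS, whereas *Rgs2* stayed low in it. Outside SMC, heat shock genes past the limit lower in mgR than in WT were 4 of 4 in fibroblasts, 2 of 4 in immune cells and 1 of 4 in EC. The share of all genes was 7.09% in immune cells and 10.3% in EC, and was not counted in fibroblasts. The mgR to WT ratio of *Rgs2* was 1.58 in fibroblasts, 1.02 in immune cells and 1.63 in EC. The part of the stress response in the *Rgs2* level was not tested.

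*Rgs4*, the neighbor of *Rgs5* on chromosome 1, differed little in SMC. It stood at 79.0 CPM (76.6–81.5) in WT, 59.8 CPM (57.6–62.0) in mgR and 66.6 CPM (64.7–68.5) in mgR-LOS, with a mgR to WT ratio of 0.756 (0.721–0.794). WT was again the highest library, but the ratio stayed within the 1.5-fold limit, except at 0.622 with a limit of 5% mitochondrial UMIs. *Rgs3*, which encodes long and short isoforms, stood at 32.3 CPM (30.8–33.9), 37.8 CPM (36.1–39.6) and 36.2 CPM (34.8–37.7), with WT lowest and a mgR to WT ratio of 1.17 (1.10–1.25). *Rgs10*, a small family member with little beyond its RGS domain, stood at 11.7, 13.5 and 11.7 CPM in the 3 SMC libraries.

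*Rgs1* and *Rgs16* were found in SMC at trace levels. *Rgs1* stood at 0.232, 1.88 and 0.987 CPM in SMC, which was 0.0457, 0.371 and 0.223% of its immune level, where 4 immune genes left out of the gate stood at 0.0361, 0.185 and 0.242% of theirs. *Rgs16* had 1, 57 and 99 UMIs in SMC, and 10 barcodes held 80.7% of them in mgR and 77.8% in mgR-LOS. It was thus found in few SMC barcodes of any library.

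In SMC of losartan-treated mice, all 5 members with 10 CPM lay within 1.5-fold of mgR. Accordingly, 0 of 5 members were past the limit in either direction between mgR-LOS and mgR, against 4.21% of all genes higher and 3.45% lower. With 5 members, nothing is read from a count of 0. It also depended on the processing, as *Rgs5* stood at 2.39 and *Rgs2* at 1.63 with classes from graph clusters. Between mgR-LOS and WT, *Rgs2* and *Rgs5* were past it lower and 0 of 5 were past it higher, against 3.24% of all genes lower and 4.83% higher. This comparison shares the WT SMC with the one that chose the set, so nothing is read from its count. The plot of ratios by class shows both comparisons against the mgR to WT ratios.

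**Figure D3:**
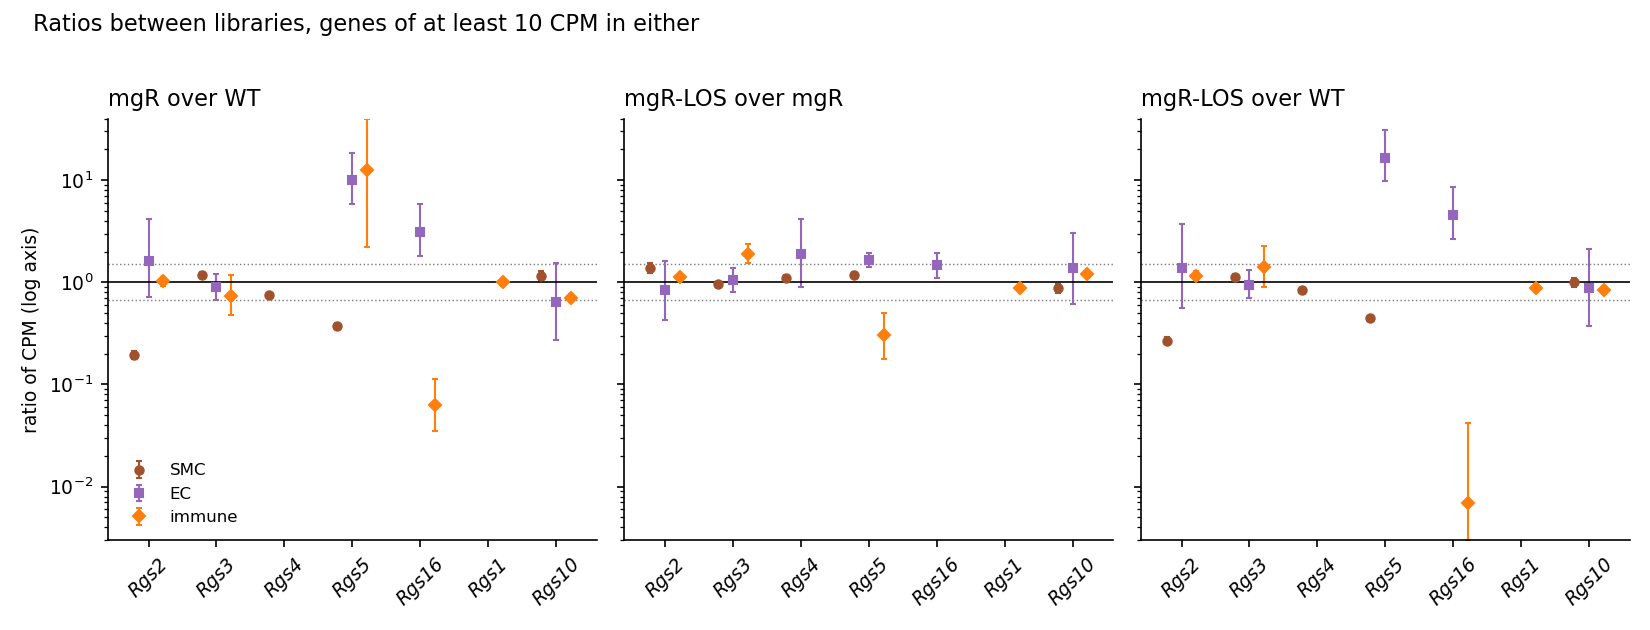
Ratio of CPM (log axis) of mgR to WT, mgR-LOS to mgR and mgR-LOS to WT for the RGS genes with at least 10 CPM in SMC, EC and immune cells, with exact 95% counting intervals, bars cut at the axis ends and dotted lines at 1.5-fold in each direction. In the left panel *Rgs5* is below 1 in SMC (0.377) and above 1 in EC (10.03) and immune cells (12.7), the last resting on 1 WT UMI.

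*Rgs4* was detected more often in SMC barcodes with *Rgs5* than in those without, although the mgR intervals overlapped. In SMC without pericyte markers, thinned to 5000 UMIs, 34.5% of WT barcodes with an *Rgs5* UMI also had an *Rgs4* UMI, against 25.5% of those without. The pair of shares was 27.9% (22.3–33.9) and 22.8% (21.2–24.4) in mgR and 34.4 and 22.8% in mgR-LOS. The difference had the same sign in each library. Thinning left out 146 WT, 120 mgR and 983 mgR-LOS barcodes. The shares of *Rgs2* with and without *Rgs5* were 17.2 and 13.5% of WT, 6.97 and 3.45% of mgR and 5.95 and 5.11% of mgR-LOS barcodes. This difference also had the same sign in each library, and the intervals overlapped in each. Overlap of such intervals does not show that the shares with and without *Rgs5* are equal. For the remaining pair, *Rgs4* was found in 27.3% of WT barcodes with *Rgs2* and 27.6% of those without, in 20.7 and 23.3% in mgR and in 21.8 and 24.2% in mgR-LOS. Cells of 1 library are not replicates, and these shares are a description.

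Other parts of the pathway were described in SMC from lists. Of 14 other RGS genes, 2 reached 10 CPM in mgR or WT SMC. *Rgs17*, which belongs to a subfamily acting on G alpha i and G alpha z, stood at 3.48 CPM in WT, 20.7 CPM in mgR and 44.3 CPM in mgR-LOS. Its mgR to WT ratio was 5.94 (5.06–7.002) and its mgR-LOS to mgR ratio was 2.15 (1.996–2.31), so WT was the lowest library for *Rgs17* and the highest for *Rgs5* and *Rgs2*. *Rgs7*, a member of the subfamily that binds the atypical subunit G beta 5, stood at 22.9, 11.3 and 14.8 CPM, with a mgR to WT ratio of 0.493 (0.444–0.547).

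Of 12 G alpha subunit genes, 9 reached 10 CPM in SMC and 0 were past the limit between mgR and WT. Over all genes 5.06% were past it higher and 4.1% lower, so in a list this short nothing is read from a count of 0. The median log2 ratio of the G alpha genes was 0.01. The 3 with the largest changes were *Gnai1* at 129.8 CPM in WT, 182 CPM in mgR and 186 CPM in mgR-LOS, *Gnai2* at 391, 459 and 489 CPM, and *Gnao1* at 39.3, 33.4 and 42.6 CPM, all of the inhibitory class. Of 19 effectors downstream of G alpha q and G alpha 12/13, 13 reached 10 CPM and 0 were past the limit, against the same shares of all genes. *Plcb4*, a phospholipase C activated by G alpha q, stood at 428, 307 and 413 CPM, *Itpr1*, the inositol trisphosphate receptor, at 151, 125 and 121 CPM, and *Prkcd*, a protein kinase C, at 36.6, 44.7 and 37.2 CPM.

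Of 32 vasoactive receptors, 4 reached 10 CPM in SMC. Of these, 2 were past the limit higher in mgR and 1 lower, against 5.06% of all genes higher and 4.1% lower. *F2r*, the thrombin receptor, stood at 49.2, 75.0 and 61.9 CPM, and *Tbxa2r*, the thromboxane receptor, at 37.1, 27.0 and 28.6 CPM. *Htr2a*, a serotonin receptor, stood at 7.57 CPM in WT, 12.9 CPM in mgR and 3.95 CPM in mgR-LOS, with a mgR-LOS to mgR ratio of 0.305 (0.264–0.352), past the limit lower. *P2ry6*, a nucleotide receptor, stood at 12.6, 6.72 and 3.48 CPM, so it and *Htr2a* lay near the least level of 10 CPM. The losartan target *Agtr1a* was too low to compare, at 2.55, 1.94 and 2.89 CPM.

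In EC, *Rgs5* and *Rgs16* were higher in both mutant libraries than in WT, and *Rgs3* was level. Between mgR and WT, 3 of 5 members were past the limit higher (*Rgs2*, *Rgs5* and *Rgs16*) and 1 lower (*Rgs10*), where 14.2% of all genes were past it higher and 10.3% lower. Between mgR-LOS and mgR, 2 of 6 were higher (*Rgs4* and *Rgs5*) and 0 lower, against 10.3% in each direction. Between mgR-LOS and WT, 3 of 6 were higher (*Rgs4*, *Rgs5* and *Rgs16*) and 0 lower, against 15.7% higher and 11.9% lower. *Rgs2* (8, 28 and 16 UMIs) and *Rgs10* (11, 15 and 14 UMIs) rested on few molecules, and the counting intervals of their ratios included 1. That of *Rgs4* between mgR-LOS and mgR did so as well (1.91, 0.896–4.14).

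*Rgs3* was the steadiest EC member, at 93.4 CPM (73.1–118) in WT, 83.5 CPM (70.2–98.7) in mgR and 88.8 CPM (72.2–108) in mgR-LOS. These intervals overlapped throughout. Its luminal, lymphatic and capillary levels lay between 48.3 and 109 CPM.

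*Rgs5* in EC stood at 18.2 CPM (9.93–30.5) in WT, 182 CPM (162–204) in mgR and 302 CPM (270.1–336) in mgR-LOS, so that WT was lowest here and highest in SMC. Between mgR and WT the ratio was 10.03 (5.89–18.6) and the mgR-LOS to mgR ratio was 1.65 (1.41–1.94). These UMIs came from 5, 16 and 12 barcodes. The capillary subset, gated on *Rgcc*, *Cd36*, *Fabp4*, *Gpihbp1* and *Car4*, held 14 of 14, 296 of 301 and 335 of 336 of these UMIs, with *Rgs5* at 77.9 CPM (42.6–131) in 23 WT barcodes, 1021 CPM (908–1144) in 36 mgR barcodes and 1693 CPM (1517–1884) in 28 mgR-LOS barcodes. Luminal EC stood at 0, 5.02 and 2.71 CPM and lymphatic EC at 0, 3.28 and 0 CPM.

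The capillary *Rgs5* moved with pericyte markers. In the capillary subset 2, 8 and 10 *Rgs5*-rich barcodes held 64.3, 99.0 and 99.4% of the *Rgs5* UMIs, and the 6 pericyte genes summed to 214, 1063 and 1254 CPM in these barcodes against 17.6, 14.3 and 0 CPM in the other capillary barcodes. Over all EC the pericyte sum was 12.97 CPM in WT, where *Ndufa4l2* and *Vtn* were at 0, 64.8 CPM in mgR and 149.9 CPM in mgR-LOS. Without EC barcodes that had 3 pericyte UMIs, a step added after seeing the data, the mgR to WT ratio of *Rgs5* was 2.91, while the mgR-LOS to mgR ratio was 0.250 and the mgR-LOS to WT ratio 0.727, both turned in direction. The 6 SMC genes left out of the gate stood in EC at 8.24, 8.74 and 9.97% of their SMC level, whereas *Rgs5* stood at 14.7, 391 and 545% of its own. The part of pericyte RNA in the EC level of *Rgs5* was not tested.

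*Rgs4* was not detected in WT EC, with 0 UMIs and an upper limit of 4.79 CPM, and stood at 8.47 CPM (4.63–14.2) in mgR and 16.2 CPM (9.57–25.5) in mgR-LOS. The mgR interval reached below the WT upper limit, whereas the mgR-LOS interval lay above it. All of these UMIs were in 6 and 8 barcodes. The capillary subset, where *Rgs5* moved with pericyte markers, held 11 and 16 of them and stood at 37.9 and 80.9 CPM. The point values of *Rgs4* had the same EC library order as those of *Rgs5*, from 14 and 18 UMIs. As the interval of its mgR-LOS to mgR ratio included 1 (0.896–4.14), no full order is read for *Rgs4*. The part of pericyte RNA in the EC level of *Rgs4* was not tested.

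*Rgs16*, an inducible regulator of G alpha i and G alpha q signals, was the other EC member that differed. It stood at 19.5 CPM (10.9–32.1; 15 UMIs in 10 barcodes) in WT, 61.1 CPM (49.8–74.3; 101 UMIs in 39 barcodes) in mgR and 89.7 CPM (73.0–109; 100 UMIs in 32 barcodes) in mgR-LOS. Its mgR to WT ratio was 3.14 (1.82–5.82), the mgR-LOS to mgR ratio 1.47 (1.10–1.95) and the mgR-LOS to WT ratio 4.61 (2.67–8.55). Unlike *Rgs5*, *Rgs16* was found in lymphatic EC, gated on *Prox1*, *Lyve1*, *Mmrn1*, *Ccl21a*, *Reln* and *Flt4*, at 29.8 CPM (8.13–76.4) in WT, 91.8 CPM (69.3–119) in mgR and 152 CPM (113–199) in mgR-LOS. Capillary EC stood at 50.1, 114 and 116 CPM and luminal EC at 3.20, 1.67 and 10.9 CPM. Lymphatic barcodes made up 17.2, 32.5 and 26.5% of EC, and the WT lymphatic value rested on 17 barcodes.

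*Rgs1*, *Rgs2* and *Rgs10* had their highest CPM in immune cells, and there each of these 3 genes lay within 1.5-fold in every comparison between libraries. Between mgR and WT, 1 of 6 members was past the limit higher (*Rgs5*) and 1 lower (*Rgs16*), against 9.04% of all genes higher and 7.09% lower. Between mgR-LOS and mgR, 1 of 5 was higher (*Rgs3*) and 1 lower (*Rgs5*), against 5.9% higher and 4.53% lower. Between mgR-LOS and WT, 0 of 5 were higher and 1 was lower (*Rgs16*), against 12.3% higher and 7.3% lower.

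*Rgs1*, a brake on chemokine receptors in lymphocytes and macrophages, stood at 508 CPM (468–550.2) in WT, 507 CPM (495–519) in mgR and 442 CPM (425–460.2) in mgR-LOS immune cells. *Rgs2* stood at 324 CPM (292–358), 331 CPM (322–341) and 378 CPM (361–394). The WT and mgR intervals overlapped for both genes. The mgR to WT ratio of *Rgs2* was 1.02 (0.920–1.14) in immune cells, where its SMC ratio was 0.194, and whether these ratios differ could not be tested with 1 library per group.

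*Rgs10* stood at 483 CPM (444–524) in WT, 342 CPM (332–352) in mgR and 408 CPM (391–425) in mgR-LOS immune cells. WT was highest, with a mgR to WT ratio of 0.708 (0.648–0.774) that stayed inside the limit. The makeup of the class moved as well. Macrophages, the subset with the highest *Rgs10*, were 66.2% of immune barcodes in WT, 55.9% in mgR and 68.4% in mgR-LOS, and within them *Rgs10* stood at 583, 474 and 501 CPM.

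The immune subsets differed in which member they carried, as the plot of immune subsets shows. Macrophages were high in *Rgs1* (616, 622 and 519 CPM) and *Rgs10*, whereas T or NK cells were high in *Rgs2* (643, 563.6 and 604 CPM) and lower in *Rgs10* (163, 123 and 173 CPM). Monocytes or dendritic cells held *Rgs2* at 527, 365 and 467 CPM, with 7 barcodes in WT. B cells and neutrophils, with 127 and 68 barcodes in mgR, held *Rgs2* at 149 and 463 CPM and *Rgs1* at 73.4 and 133 CPM there.

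**Figure D4:**
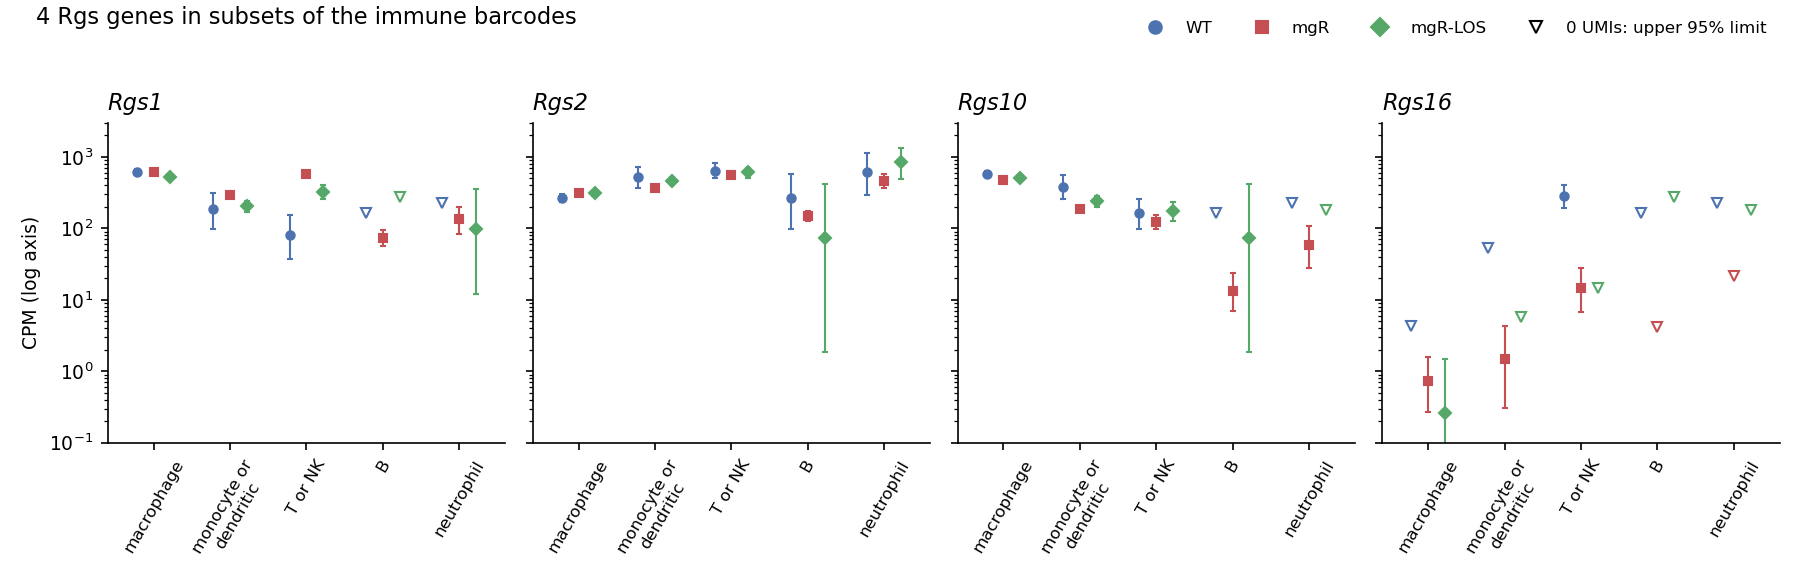
Level (CPM, log axis) of *Rgs1*, *Rgs2*, *Rgs10* and *Rgs16* in macrophages, monocytes or dendritic cells, T or NK cells, B cells and neutrophils of each library, where points are sums over the barcodes and bars are exact 95% counting intervals. *Rgs1* in T or NK cells lies at 81.5 CPM in WT, 577 CPM in mgR and 322 CPM in mgR-LOS, while the macrophage values lie between 519 and 622 CPM.

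Within T or NK cells *Rgs1* stood at 81.5 CPM (37.3–155) in 23 WT barcodes, 577 CPM (518–639.8) in 130 mgR barcodes and 322 CPM (256–399) in 61 mgR-LOS barcodes. Its mgR to WT ratio was 7.08 (3.69–15.6), from 9 UMIs in WT. *Rgs16* went the other way, at 281 CPM (191–398) in WT, 14.6 CPM (6.68–27.7) in mgR and 0 CPM in mgR-LOS T or NK cells. All 31 WT immune UMIs of *Rgs16* were in 3 barcodes, 17 of them in 1 barcode. Over all immune cells *Rgs16* therefore stood at 26.6, 1.69 and 0.185 CPM, with a mgR to WT ratio of 0.0634 (0.0353–0.112) that rests on those 3 barcodes.

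The remaining immune values were low. *Rgs5* had 1 UMI in WT, 148 in mgR and 18 in mgR-LOS, and 105 of the mgR UMIs were in 1 barcode, without which mgR stood at 3.15 CPM. *Rgs3* stood at 20.6 CPM (13.2–30.6) in WT, 15.1 CPM (13.1–17.3) in mgR and 28.9 CPM (24.5–33.8) in mgR-LOS, with a mgR-LOS to mgR ratio of 1.91 (1.54–2.37). The macrophage values of *Rgs3* had the same order, at 20.8, 17.9 and 36.3 CPM. *Rgs4* stood at 6.00, 2.13 and 1.67 CPM, or 7.60, 3.56 and 2.502% of its SMC level, where SMC genes left out of the gate stood at 2.27, 2.58 and 2.87% of theirs.

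Of the other RGS genes in EC and immune cells, *Rgs19*, a regulator of G alpha i, stood at 41.2, 38.6 and 37.4 CPM in immune cells and 20.8, 26.6 and 15.3 CPM in EC, and *Rgs18*, known from platelets and myeloid cells, stood at 35.2, 30.3 and 35.9 CPM in immune cells. *Rgs14* stood at 7.72 CPM in WT, 11.2 CPM in mgR and 19.8 CPM in mgR-LOS immune cells, and *Rgs12* stood at 10.4, 7.87 and 18.8 CPM in EC. None of the other RGS genes with 10 CPM reached the limit between mgR and WT in EC or immune cells. The G alpha list had 1 of 8 genes past the limit in EC (*Gnai1*, lower) and 0 of 8 in immune cells. The receptor list had 3 of 9 genes past it higher in EC (*Ednrb*, *Htr2b* and *Lpar1*) and, in immune cells, 1 of 10 higher and 3 lower. The effector list had 1 of 16 higher and 1 lower in EC and 3 of 16 higher in immune cells. Over all genes, 14.2% were past the limit higher and 10.3% lower in EC, and 9.04 and 7.09% in immune cells.

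Fibroblasts served as the comparison class. *Rgs2* stood at 39.4 CPM in WT, 62.4 CPM in mgR and 56.2 CPM in mgR-LOS, a mgR to WT ratio of 1.58 (1.44–1.74) against 0.194 in SMC. *Rgs5* stood at 80.6, 152 and 93.4 CPM, a ratio of 1.89 (1.77–2.02), with 87.4% of the mgR UMIs in 136 *Rgs5*-rich barcodes. *Rgs16* stood at 1.97, 13.3 and 10.7 CPM, a ratio of 6.72 (4.61–10.2). *Rgs4* had a ratio of 1.29 (1.03–1.62), *Rgs3* of 1.07 (0.948–1.21) and *Rgs10* of 0.808 (0.730–0.895). *Rgs1* had 2 UMIs in WT and 51 in mgR, a ratio of 12.5 (3.29–106) from 0.136 and 1.70 CPM. *Rgs1* and *Rgs4* thus lay below 10 CPM in both libraries. The *Rgs1* values were 0.0268 and 0.336% of its immune level, where 4 immune genes left out of the gate stood at 0.0975 and 0.188% of theirs. Pericyte genes summed to 400.6, 319 and 368 CPM in fibroblasts. In *Rgs5*-rich fibroblasts this sum was 369, 399 and 366 CPM, against 402, 314 and 368 CPM in the others. Of the 136 *Rgs5*-rich mgR barcodes, 84 had at least 3 UMIs of the pericyte list. The same count was not made for the other fibroblasts, which also held these genes, so nothing is read from it. The part of pericyte RNA in the fibroblast level of *Rgs5* was not tested.

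The likeness of each member to other genes was measured as the Pearson correlation of log2(CPM + 1) over 50 classes and subsets of the 3 libraries. These populations overlap and share libraries, so the values are a description. *Rgs5* was closest to *Sparcl1* (r = 0.829), *Abcc9* (0.826) and *Agtr1a* (0.817), the last encoding the receptor that losartan blocks, and *Abcc9* and *Agtr1a* were also among its 3 closest genes over the 39 populations with at least 20 barcodes, a choice made after seeing the data. *Rgs4* was closest to *Map7d2* (0.832), *2210407C18Rik* (0.823) and *Cacna1c* (0.822), the last encoding the L-type calcium channel of smooth muscle. *Rgs1* was closest to *Bcl2a1d* (0.940), *Gpr65* (0.935) and *Otulinl* (0.925).

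*Rgs2* was closest to *Lsp1* (0.887), *Arhgap15* (0.886) and *Selplg* (0.871), and *Rgs10* to *Bcl2a1d* (0.827), *Runx3* (0.816) and *Pmaip1* (0.793). *Rgs3* was closest to *Selenon* (0.864), *Nxn* (0.853) and *Ralb* (0.845), and *Rgs16* to *Sema6a* (0.741), *Hey1* (0.736) and *Ptprk* (0.735). *Rgs16* thus had the weakest likeness of the 7 members. Apart from *Abcc9* and *Agtr1a* for *Rgs5* and *Map7d2* for *Rgs4*, the 3 closest genes changed when the smallest populations were left out.

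The SMC values of *Rgs5* and *Rgs2* were recomputed under each other way of processing, and the plot of SMC ratios by processing shows the outcome. *Rgs2* stayed between 0.175 and 0.244 for mgR to WT, a narrower range than that of *Rgs5*. Its mgR-LOS to mgR ratio lay between 1.12 and 1.63, above the limit only with classes from graph clusters.

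**Figure D5:**
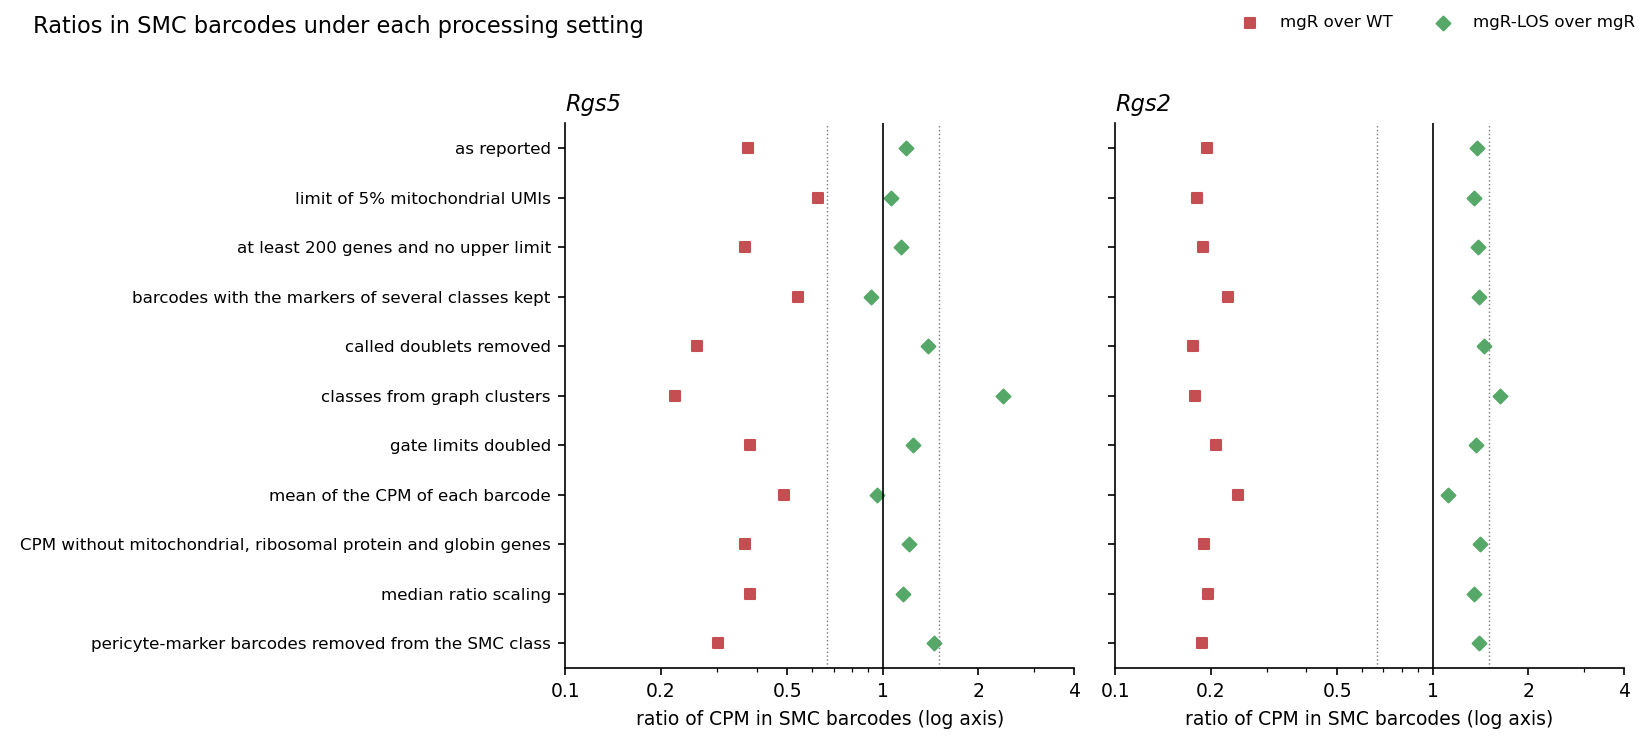
Ratio of mgR to WT and of mgR-LOS to mgR (log axis) for *Rgs5* and *Rgs2* in SMC under each way of processing, with points for the ratio. The mgR to WT ratio of *Rgs5* runs from 0.221 to 0.625 and that of *Rgs2* from 0.175 to 0.244, all below 1, whereas the mgR-LOS to mgR ratio of *Rgs5* runs from 0.918 to 2.39.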

How the data were processed

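Ascending aortas were dissociated and profiled as 3 droplet libraries (10x Genomics), 1 per group, from pooled mice. The authors deposited raw UMI counts per gene and barcode made with Cell Ranger on mm10; the matrix headers give version 5.0.1 for WT and mgR and 6.0.1 for mgR-LOS, and the labels give 6.0.1 for all. Such counts read 3′ ends, so levels were compared within a gene.

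Total UMIs were 83338726, 123956320 and 121436873. The barcodes kept (600 to 5000 genes, no more than 10% of UMIs mitochondrial) were gated with at least 3 panel UMIs and 100 (SMC), 15 (EC), 8 (immune) or 60 (fibroblast) panel UMIs per 10000, and those positive for several classes (106, 516 and 659) or none (55, 192 and 146) were left out. Doublets were called only as an alternative. UMIs were summed per class, with exact Poisson (levels), Clopper-Pearson (shares) and conditional binomial (ratios) intervals, and no test was made. Python 3.11.15, numpy 2.4.6, scipy 1.17.1, scikit-learn 1.9.0, leidenalg 0.10.2 and matplotlib 3.10.9 were used. The code for fold calls and ratio intervals was run on simulated Poisson sums. These hold no spread between barcodes or mice, so the run says nothing about how far such spread moves the ratios.

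The members, the gene lists and the subsets were chosen with earlier results of these data known. Named genes were the 7 members, other RGS genes with 10 CPM in any class, up to 3 genes per pathway list with the largest SMC ratio among those of 20 CPM, and the 3 genes most like each member. *Htr2a*, *P2ry6*, *Agtr1a*, *Ednrb*, *Htr2b* and *Lpar1* were named after their values were seen.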

Additional observations from a re-analysis of the deposited data

Results flagged for a closer look

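*Rgs2* lay on opposite sides of 1 between classes for mgR over WT, with a ratio of 0.194 in SMC and 1.58 in fibroblasts. *Rgs5* did so as well, with 0.377 in SMC against 10.03 in EC, 12.7 in immune cells and 1.89 in fibroblasts. In EC, 8 *Rgs5*-rich barcodes held 97.3% of the mgR *Rgs5* UMIs. The immune ratio of *Rgs5* rested on 1 WT UMI and on 1 mgR barcode with 70.9% of the mgR UMIs. *Rgs16* had a ratio of 0.0634 in immune cells, which rested on few WT barcodes, 3.14 in EC and 6.72 in fibroblasts. The difference between classes was not tested for any of the 3 genes, since there was 1 library per group.

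*Rgs5* also stood high in barcodes that entered no comparison. In barcodes positive for several classes it stood at 496 CPM (477–516) in mgR and 145 CPM (136–153) in mgR-LOS, against 114 CPM (95.5–135) in WT. In barcodes positive for no class it stood at 228 CPM (208–249) in mgR and 377 CPM (335–422) in mgR-LOS, against 60.6 CPM (38.8–90.2) in WT. In the mgR library 65 barcodes of the several-class set and 10 of the no-class set were *Rgs5*-rich.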

How the results depend on the processing

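Of 47 ratios of the members in SMC, EC and immune cells, 17 were past the 1.5-fold limit, of which 13 kept their direction and 11 stayed past the limit under every alternative run. The mgR to WT ratio of *Rgs5* in SMC was 0.625 with a limit of 5% mitochondrial UMIs, 0.538 with several-class barcodes kept, 0.260 with called doublets removed, 0.221 with classes from graph clusters, 0.488 as the mean per barcode and 0.302 without pericyte-marker barcodes. In the same order the mgR-LOS to mgR ratio was 1.06, 0.918, 1.39, 2.39, 0.957 and 1.44. The mgR to WT ratio of *Rgs2* in SMC was 0.226 with several-class barcodes kept, 0.175 with called doublets removed and 0.244 as the mean per barcode. In EC the mgR to WT ratio of *Rgs5* was 4.73 as the mean per barcode and 2.91 without pericyte-list barcodes, an alternative chosen after seeing the data. Without those barcodes the mgR-LOS to mgR and mgR-LOS to WT ratios were 0.250 and 0.727, and the former was also turned with several-class barcodes kept (0.884) and with graph clusters (0.694). The mgR-LOS to mgR ratio of *Rgs4* in EC was 0.879 from barcodes with at least 200 genes, and that of *Rgs5* in immune cells was 1.03 at 5% mitochondrial UMIs. The cause of these changes was not tested.

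Thinned to 2000 UMIs, *Rgs5* was found in 12.9, 4.76 and 6.37% of WT, mgR and mgR-LOS SMC and *Rgs2* in 7.56, 1.68 and 2.43%. Without thinning the shares were 36.7, 16.4 and 15.7% for *Rgs5* and 25.5, 8.88 and 8.38% for *Rgs2*.

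The number of all genes past the limit depends on where it is set. At 1.5-fold, 2-fold and 1.5-fold with 50 CPM, the genes higher in mgR than WT numbered 385, 171 and 142 in SMC, 1275, 458 and 318 in EC and 719, 293 and 140 in immune cells, and those lower 312, 119 and 113, then 928, 367 and 169, then 564, 151 and 111. For mgR-LOS over mgR the genes higher numbered 322, 64 and 112, then 914, 292 and 218, then 465, 86 and 136, and those lower 264, 73 and 116, then 915, 288 and 238, then 357, 170 and 109. For mgR-LOS over WT the genes higher numbered 372, 138 and 103, then 1414, 546 and 377, then 985, 302 and 198, and those lower 249, 74 and 86, then 1076, 404 and 243, then 585, 199 and 128. In immune cells graph clusters gave 1049 genes higher for mgR-LOS over mgR and 1687 for mgR-LOS over WT, and the mean per barcode gave 933 lower for mgR over WT and 941 lower for mgR-LOS over WT. In SMC between mgR and WT, the 2-fold limit left *Rgs5* and *Rgs2* past it.

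No paired analysis was possible because each group had 1 library and the labels give no replicate numbers. The spread between mice is unknown, EC values rest on 99 to 206 barcodes, and mgR-LOS was the shallowest library per barcode.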
